A study of Mus musculus with 6 samples.

Results

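Expression of 9 genes of the complement system was followed in injured mouse kidneys. They were the 3 chains of C1q (C1qa, C1qb and C1qc), the components C3, C4b and factor B (Cfb), and the regulators factor I (Cfi), Cd55 and C1 inhibitor (Serping1). The genes were chosen by name, each stands here by the probe set with the highest average signal over the arrays, and all 9 were among the 18238 genes compared. Each of the 9 had a single probe set.

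The kidneys came from male BALB/c mice aged 10 to 12 weeks. Blood flow to 1 kidney was stopped with a clamp for 26 min and then restored, and the other kidney was taken out. Treatment followed 24 h later, with either vehicle, which was 20% 2-(hydroxypropyl)-beta-cyclodextrin in water, or m4PTB at 100 mg per kg. m4PTB, or methyl 4-(phenylthio)butanoate, is an inhibitor of histone deacetylases. The injured kidneys were harvested 12 h after treatment, at day 1.5, and whole-kidney RNA of 3 vehicle and 3 m4PTB samples was measured on 1 array each. All samples were injured, so no uninjured level stood beside them, and the kidneys had been picked for a similar degree of injury by serum creatinine, blood urea nitrogen and Kim1 (Havcr1) message. The mean Havcr1 signal was 11.71 in the vehicle group (SD 0.28, n = 3) and 11.73 in the m4PTB group (SD 0.22, n = 3).

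Complement is a cascade of plasma and cell-surface proteins that tags and attacks microbes and damaged cells. C1q recognises immune complexes and dying cells and starts the classical pathway, which cleaves C4 and C2, whereas the alternative pathway amplifies itself through C3 and factor B. Both converge on the cleavage of C3, and a set of soluble and membrane inhibitors holds the cascade in check on host cells. Most plasma complement is made by the liver, but tubular cells make C3 and factor B locally after ischemia, and in many tissues macrophages are the main makers of C1q.

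Signals are given on the deposited log2 scale, on which a difference of 1 is a doubling. A level on this scale cannot be compared between genes, because each probe set has its own response. Background was read from the negative control probe sets, whose 90th percentile (the control percentile) lay between 7.73 and 7.86 on the arrays. C1qb, C3, C4b, Cfb and Serping1 were above it on all 6 arrays, C4b only narrowly on some, with 7.83 against 7.80 on m4PTB replicate 2. C1qc was above it on 1 array, and C1qa, Cfi and Cd55 were above it on none. Background compresses differences of such dim genes toward 0. Vehicle replicate 3 stood apart from the other arrays, with a mean absolute deviation from the genes' medians of 0.176 against 0.066 to 0.087 on the other 5 arrays.

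None of the 9 genes passed the test of m4PTB against vehicle. The largest difference on the higher side was that of C3, at 1.35-fold in m4PTB over vehicle kidneys, and that on the lower side was that of Serping1, at 0.825-fold. The other 7 genes differed by -0.06 to 0.15 on the log2 scale. By limma with Benjamini-Hochberg adjustment 0 of the 9 had an adjusted p under 0.05, beside 0% of all genes tested, and the smallest adjusted p among the 9 was 0.679. At an unadjusted p under 0.05 there was 1 gene lower (Serping1), beside 2.56% of all genes, and 0 higher, beside 4.67%. The median difference of the 9 genes was 0.08, with 7 higher and 2 lower, beside 0.01 over all genes tested. This lean rested on vehicle replicate 3: without it the median was -0.03, with 4 higher and 5 lower.

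**Figure D1:**
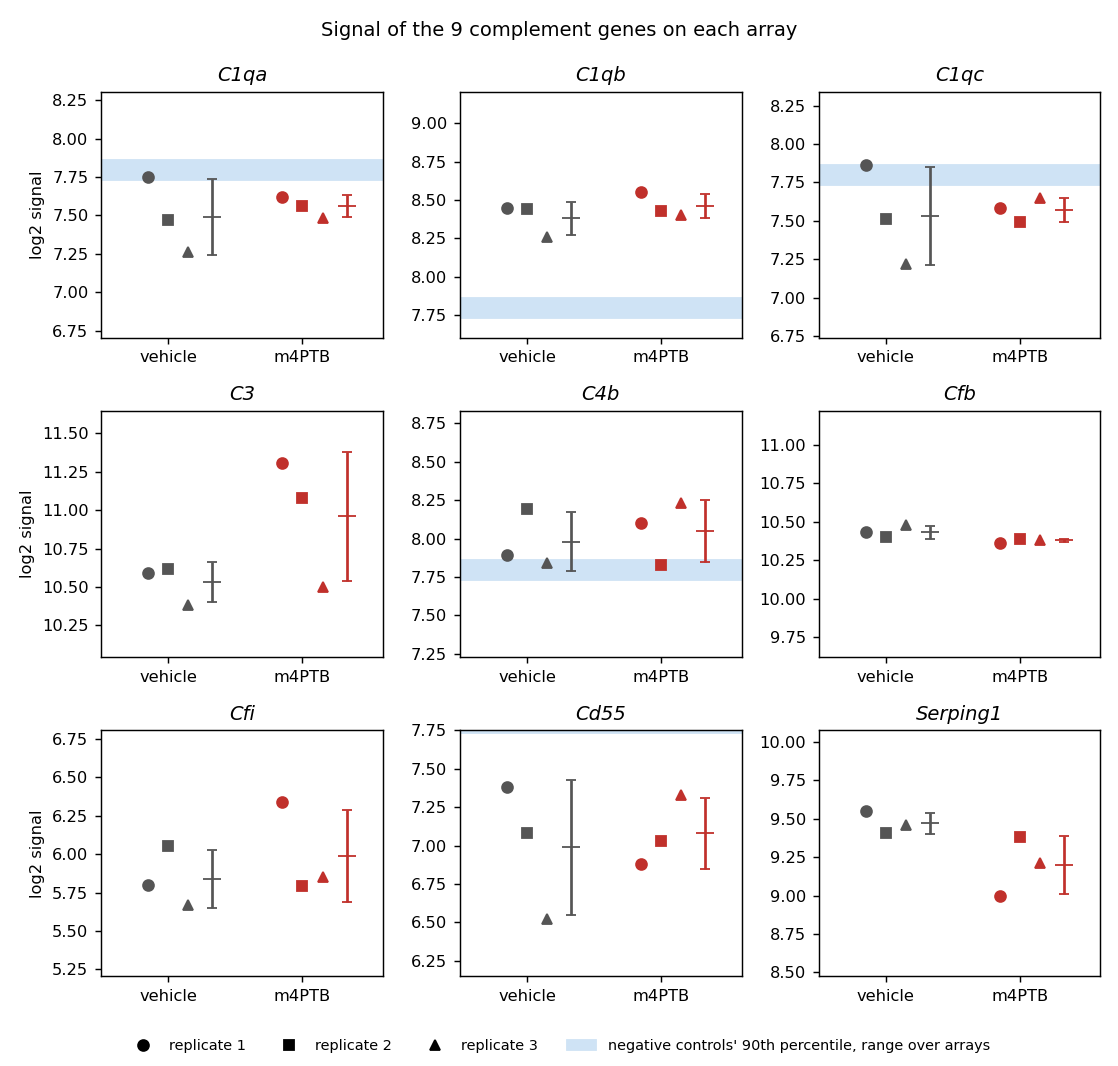
Log2 signal of the 9 complement genes on each array (y axes, all spanning 1.6 units) in vehicle (grey) and m4PTB (red) kidneys, with symbols for the replicates, bars for the mean ± SD of 3 samples, and a band, where it falls in range, for the 90th percentile of the negative controls. C3 is high in m4PTB replicates 1 and 2 but not in m4PTB replicate 3, and all 3 m4PTB values of Serping1 lie below the vehicle values.

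The promoters of a few of these genes are shown because the text turns on them: C3, with the largest difference, and C1qb and C1qc, adjacent genes whose products assemble into 1 protein. The sequences are the 250 bases before the annotated start, from RefSeq in build GRCm38.p6, each on the minus strand and written in the direction of the gene, at chr17:57228137-57228386 for C3, chr4:136886201-136886450 for C1qb and chr4:136892915-136893164 for C1qc. Capitals mark every match, on either strand, to an NF-kB core (GGG and CC with 5 bases of any kind between them), an interferon element (GAAA and GAAA with 2 bases of any kind between them), the gamma-interferon site TTCNNNGAA, the PU.1 letters GAGGAAGT and the C/EBP letters TTGCNNAA, the last added after the C3 sequence had been read.
C3: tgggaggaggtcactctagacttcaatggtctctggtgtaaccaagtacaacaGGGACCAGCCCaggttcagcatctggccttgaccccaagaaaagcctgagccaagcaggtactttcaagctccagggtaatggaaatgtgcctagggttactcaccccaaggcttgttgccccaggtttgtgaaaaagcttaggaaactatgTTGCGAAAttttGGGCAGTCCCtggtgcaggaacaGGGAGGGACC
C1qb: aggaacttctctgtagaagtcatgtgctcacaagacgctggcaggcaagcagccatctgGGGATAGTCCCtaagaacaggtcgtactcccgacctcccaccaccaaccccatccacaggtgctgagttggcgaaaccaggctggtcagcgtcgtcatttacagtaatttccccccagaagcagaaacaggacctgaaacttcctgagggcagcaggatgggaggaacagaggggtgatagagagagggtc
C1qc: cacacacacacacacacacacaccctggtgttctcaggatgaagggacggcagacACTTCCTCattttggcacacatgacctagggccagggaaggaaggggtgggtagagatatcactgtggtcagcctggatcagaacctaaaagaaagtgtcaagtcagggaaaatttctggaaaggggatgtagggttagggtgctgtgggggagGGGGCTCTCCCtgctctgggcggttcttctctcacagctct

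In C3 the C/EBP letters lie at positions -45 to -38 before the start, and NF-kB letters at -33 to -24, at -10 to -1 and, as a pair of overlapping matches, at -197 to -187. In C1qc the PU.1 letters, read on the opposite strand, lie at -195 to -188 and overlapping NF-kB letters at -41 to -31. In C1qb only overlapping NF-kB letters were found, at -191 to -181. Of 32851 promoters of the same length, 45.8% hold the NF-kB letters, 9.56% the C/EBP letters, 2.44% the PU.1 letters, 7.02% the gamma-interferon site and 2.98% the interferon element, so the NF-kB letters are common in promoters at large. Of the 9 genes, 4 matched an entry of the promoter table: those shown and Cd55.

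The C1q chains, which start the classical pathway, differed little between the groups. C1qb, the B chain and the only one above background on all arrays, had a signal of 8.45, 8.44 and 8.26 in vehicle replicates 1, 2 and 3 and of 8.55, 8.43 and 8.40 in m4PTB replicates 1, 2 and 3. The groups overlapped, with vehicle replicate 3 lowest and m4PTB replicate 1 highest. The difference in log2 signal was 0.08, with a standard error of 0.08 and a 95% confidence interval of -0.11 to 0.27, which spans 0.924-fold to 1.20-fold (limma adjusted p = 0.788).

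C1qa, the A chain, had a signal of 7.75, 7.47 and 7.26 in the vehicle kidneys and of 7.62, 7.56 and 7.48 in the m4PTB kidneys. All 3 m4PTB values lay inside the vehicle range, and the vehicle SD of 0.25 was larger than the m4PTB SD of 0.07. The difference was 0.06 with an interval of -0.22 to 0.35. C1qc, the C chain, showed the same spread, with vehicle values of 7.86, 7.51 and 7.22 and m4PTB values of 7.58, 7.49 and 7.65. Its difference was 0.04 with an interval of -0.30 to 0.39. Without vehicle replicate 3, which had the lowest signal of all 3 chains, the differences of C1qa and C1qc turned to -0.05 and -0.11, and that of C1qb was 0.01.

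The 3 chain genes are neighbours, in the order C1qb, C1qc and C1qa with no other protein-coding gene between them in the RefSeq gene table. Over the 6 arrays Pearson's r was 0.90 between C1qa and C1qc (exact permutation p = 0.0333, adjusted over the 3 pairs 0.1), with Spearman's rho of 0.71 (exact permutation p = 0.136, adjusted 0.204). The relation rested on the vehicle arrays at the ends of the range: without vehicle replicates 1 and 3 it was -0.05. C1qa and C1qb had an r of 0.78 (exact permutation p = 0.0861, adjusted 0.129) and a rho of 0.77 (exact permutation p = 0.103, adjusted 0.204), and without the same 2 arrays r was 0.80. C1qb and C1qc had an r of 0.61 (exact permutation p = 0.153, adjusted 0.153) and a rho of 0.54 (exact permutation p = 0.297, adjusted 0.297), and r was 0.10 without vehicle replicate 3 and m4PTB replicate 1. None of the 3 pairs passed after adjustment.

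Macrophage and monocyte markers were set beside the C1q chains. Of 14 markers 13 were tested, 12 were higher and 1 lower in m4PTB kidneys, with a median difference of 0.18, and 0 passed over all genes tested. Without vehicle replicate 3, 10 were higher and 3 lower, with a median of 0.10. Their mean signal ran from 6.87 to 7.20 in vehicle and from 7.11 to 7.32 in m4PTB kidneys, and 3 of the 13 lay above the control percentile on all arrays. At an unadjusted p under 0.05, 4 of the 13 were higher, beside 4.67% of all genes, and 1 was without vehicle replicate 3. Mrc1, the mannose receptor, differed by 0.62, or 0.41 without vehicle replicate 3, and Aif1, a macrophage calcium-binding protein, by 0.18, both below the control percentile on every array. In whole-kidney RNA, a change in the number of cells of a type and a change in RNA per cell cannot be told apart.

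Relative to the mean of these 13 markers on the same array, C1qb was at 1.25, 1.41 and 1.39 in vehicle and at 1.23, 1.33 and 1.15 in m4PTB kidneys, a difference of -0.12 on the log2 scale. C1qa relative to the markers differed by -0.13, from 0.46 ± 0.09 (SD, n = 3) to 0.33 ± 0.12 (SD, n = 3), and C1qc by -0.15, from 0.50 ± 0.16 (SD, n = 3) to 0.35 ± 0.07 (SD, n = 3). The groups overlapped for C1qa and C1qb, and also for C1qc, where vehicle replicate 3 at 0.35 lay among the m4PTB values of 0.26, 0.38 and 0.39. The part of macrophage number in the C1q values was not tested.

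**Figure D2:**
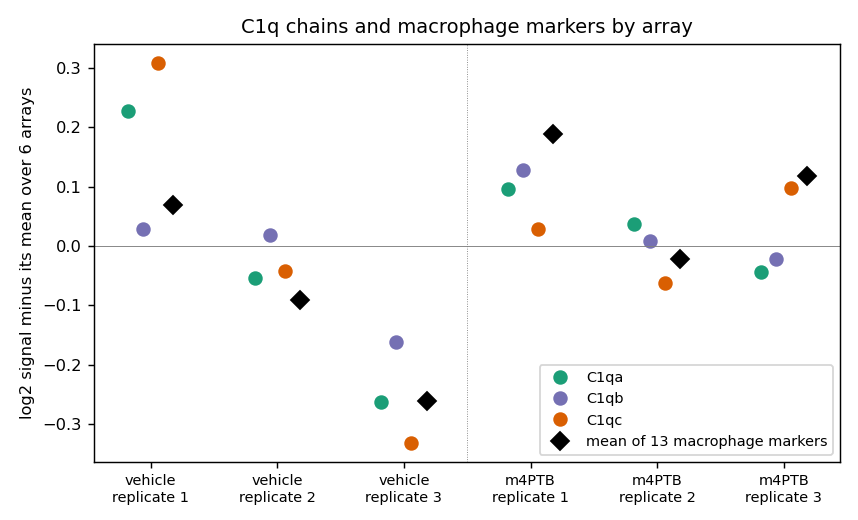
Log2 signal minus its mean over the 6 arrays (y axis) of C1qa, C1qb and C1qc (circles) and of the mean of 13 macrophage markers (diamonds) on each array (x axis). Vehicle replicate 3 is lowest for all 4 measures, and the C1qa and C1qc values of vehicle replicate 1 are the highest of their genes while the marker mean is highest in m4PTB replicate 1.

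C3, the central component whose cleavage all pathways share, had the largest difference of the 9 genes. Its signal was 10.59, 10.62 and 10.38 in vehicle replicates 1, 2 and 3 and 11.31, 11.08 and 10.50 in m4PTB replicates 1, 2 and 3. The first 2 m4PTB samples lay above every vehicle sample, and m4PTB replicate 3 lay inside the vehicle range. The difference in log2 signal was 0.43, with a standard error of 0.19 and a 95% confidence interval of -0.01 to 0.87, or 0.993-fold to 1.83-fold, and it did not pass limma's test (unadjusted p = 0.0542, adjusted p = 0.685). The exact two-sided permutation test gave p = 0.3, where the smallest value that 3 against 3 samples allow is 0.1. Of all genes tested, 1.27% had a difference of at least this size in either direction.

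Single samples moved this value. Without m4PTB replicate 3 the C3 difference was 0.66 (limma unadjusted p = 8.41e-04, adjusted p = 0.620), and without m4PTB replicate 1 it was 0.26 (unadjusted p = 0.187, adjusted p = 0.853). It was 0.36 without vehicle replicate 3. Over all alternatives the adjusted p of C3 ranged from 0.468 to 0.889. The SD of C3 was 0.42 among m4PTB kidneys and 0.13 among vehicle kidneys. Lcn2, the message of the injury marker NGAL, was highest in the same sample as C3, with 11.26 in m4PTB replicate 1 against 10.46 to 10.63 in the other m4PTB samples. In vehicle replicates 1, 2 and 3 it was 10.44, 10.58 and 9.35. The Lcn2 difference was 0.66 (limma adjusted p = 0.685), or 0.27 without vehicle replicate 3. Of the 8 tubular injury markers, 4 were highest in m4PTB replicate 1 and the other 4, Havcr1 among them, in vehicle replicate 2. The 8 markers, 6 higher and 2 lower in m4PTB kidneys, had a median difference of 0.12, or 0.04 without vehicle replicate 3, and their mean signal ran from 8.99 to 9.50 in vehicle and from 9.28 to 9.65 in m4PTB kidneys. Markers of the proximal tubule had a median difference of -0.08, with 5 of 8 lower (8 of 8 without vehicle replicate 3), and those of other tubule segments -0.12, with 8 of 8 lower. Medians were 0.13 for fibroblast and matrix (6 of 8 higher), 0.05 for endothelial (4 of 6 higher) and 0.06 for podocyte markers (4 of 5 higher). Without vehicle replicate 3 these were 0.02, -0.01 and -0.02. The list of hepatocyte markers had -0.26, with 5 of 5 lower (-0.19, with 4 of 5 lower, without vehicle replicate 3). Of its genes 2 were above the control percentile on all arrays and 3 on none, and in kidney RNA they do not measure hepatocytes. The part of injury and of cell makeup in the C3 values was not tested.

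The genes whose pattern over the 6 arrays was most like that of C3, among 1087 genes above background on all arrays with an SD of at least 0.15, were Gsta2, a glutathione S-transferase (Pearson's r = 0.985), Gm10639 (0.981) and Blvrb, a biliverdin reductase (0.974). Each was highest in m4PTB replicate 1, and their differences between groups were 0.35, 0.37 and 0.29. These correlations describe 6 arrays that were normalised together, and they were picked as the highest of many.

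C4b, the classical pathway component that forms the C3 convertase with C2, had a signal of 7.89, 8.19 and 7.84 in vehicle and of 8.10, 7.83 and 8.23 in m4PTB kidneys. High and low samples occurred in both groups. The difference was 0.08 (standard error 0.13), with an interval of -0.22 to 0.38 (adjusted p = 0.871), and it was -0.01 without m4PTB replicate 3 and 0.19 without m4PTB replicate 2. C4a, a near-identical paralog whose probes may share target sequence with C4b, differed by 0.17 and lay below the control percentile on every array. The genes most like C4b in pattern were Npm3 (Pearson's r = 0.984 over 6 arrays), a nucleoplasmin family gene, the kinase gene Hunk (0.960) and Ugt2b37 (0.948), a glucuronosyltransferase.

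Factor B (Cfb), the protease of the alternative pathway convertase, was nearly constant. Its signal was 10.43, 10.40 and 10.48 in vehicle and 10.36, 10.39 and 10.38 in m4PTB kidneys. Every m4PTB value was below every vehicle value, with replicate 2 of both groups almost level. The difference was -0.06 (standard error 0.06), with an interval of -0.21 to 0.09, or 0.867-fold to 1.06-fold (adjusted p = 0.792, exact permutation p = 0.1). Such a separation with m4PTB lower was found for 2 of the 9 genes, Cfb and Serping1, beside 5.21% of all genes tested, and with m4PTB higher for 0 of the 9, beside 9.38%. C2, which lies next to Cfb and is its classical pathway counterpart, differed by 0.01 and lay below the control percentile on every array.

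Among the regulators, C1 inhibitor (Serping1), a serpin that blocks C1r, C1s and the mannose-binding lectin proteases, had the lowest m4PTB minus vehicle difference of the 9 genes. Its signal was 9.55, 9.41 and 9.46 in vehicle replicates 1, 2 and 3 and 9.0, 9.38 and 9.21 in m4PTB replicates 1, 2 and 3. All m4PTB samples lay below all vehicle samples, with m4PTB replicate 2 just below vehicle replicate 2. The difference in log2 signal was -0.28 (standard error 0.10), with an interval of -0.52 to -0.04, or 0.699-fold to 0.974-fold. It did not pass over all genes tested (limma unadjusted p = 0.0287, adjusted p = 0.679), and the exact permutation test gave 0.1, its smallest possible p. A difference of this size or larger, in either direction, was found for 4.98% of all genes. The value was -0.18 without m4PTB replicate 1, the sample with the lowest Serping1 and the highest C3 signal, and -0.37 without m4PTB replicate 2, and it stayed below 0 under every alternative tried.

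Factor I (Cfi), the protease that inactivates C3b and C4b, was dim, with 5.80, 6.05 and 5.67 in vehicle and 6.34, 5.79 and 5.85 in m4PTB kidneys. One sample, m4PTB replicate 1, was higher than the rest, and without it the difference of 0.15 (interval -0.22 to 0.52) became -0.02. Cd55, decay-accelerating factor, a membrane protein that takes apart the C3 convertases, had 7.38, 7.08 and 6.52 in vehicle and 6.88, 7.03 and 7.33 in m4PTB kidneys. Its vehicle range enclosed all m4PTB values, and the difference was 0.09 with an interval of -0.40 to 0.58, the widest of the 9 genes. It was -0.15 without vehicle replicate 3 and 0.28 without vehicle replicate 1. Cd55b, the neighbouring paralog, lay below the filter on dim probe sets.

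The genes most like Cd55 in pattern were Mindy2 (Pearson's r = 0.979 over 6 arrays), a deubiquitinase gene, the kinase gene Jak2 (0.968) and the transcription factor gene Foxn3 (0.961). Those most like C1qa were Zfp266, a zinc finger gene (0.974), Slc38a2, an amino acid transporter gene (0.968), and Ifnar2, an interferon receptor chain (0.954). All 6 genes were lowest in vehicle replicate 3, as Cd55 and C1qa themselves were.

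**Figure D3:**
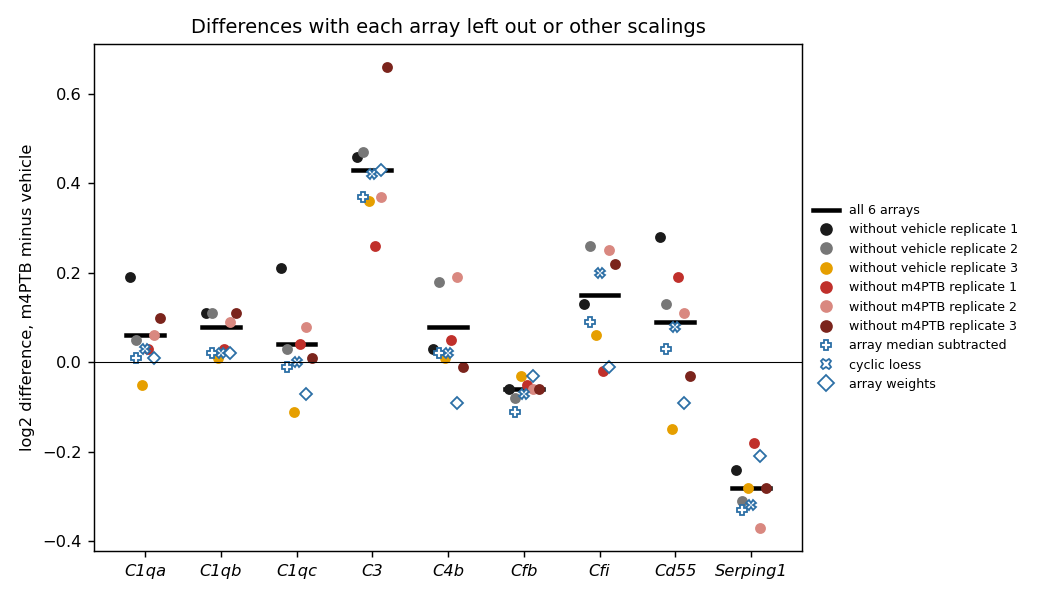
Log2 difference of each of the 9 genes, m4PTB minus vehicle (y axis), with all 6 arrays (bars), with each array left out (circles) and under 3 other scalings or weights (open blue symbols). C3 stays between 0.26 and 0.66 and Serping1 between -0.37 and -0.18, whereas C1qa, C1qc, C4b, Cfi and Cd55 lie on both sides of 0.

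The rest of the pathway was read from a wider list of 47 complement genes, of which 38 were tested and 6 lay above the control percentile on all arrays. Of the 38, 20 were higher and 18 lower in m4PTB kidneys, with a median difference of 0.02, and 0 passed over all genes tested. With each array's median subtracted, 10 were higher and 28 lower, with a median of -0.04, beside -0.05 over all genes. At an unadjusted p under 0.05, 3 of the 38 were higher (Clu, Cd93 and Mbl1), beside 4.67% of all genes, and 1 was lower (Cd59a), beside 2.56%. Groups did not overlap for 2 of the 38 that were higher (Clu and Mbl1), beside 9.38% of all genes, and for 2 that were lower (Cd59a and C8b), beside 5.21%. These counts are near the shares over all genes. With vehicle replicate 3 left out, 2 were higher at an unadjusted p under 0.05, beside 785 of 18238 genes. In the same setting 1 was lower, where leaving out any 1 array gave 303 to 698 lower over all genes.

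Among the initiators 12 of 13 genes were tested, 6 higher and 6 lower, and 11 of the 12 lay below the control percentile on every array. Mbl1, a mannose-binding lectin of the lectin pathway, differed by 0.19 and was among those dim genes. Of the alternative pathway genes Cfd and Cfp, neither was above the control percentile on any array. In the terminal pathway, whose proteins form the membrane attack complex, 5 of 7 genes were tested, 1 higher and 4 lower with a median difference of -0.10, and none was above the control percentile on all arrays. Hc, the gene of C5 and the higher one, differed by 0.04 at background. C7, named after its values were seen and above the control percentile on 4 arrays, differed by -0.34, or -0.11 without m4PTB replicate 1 (limma adjusted p = 0.692 with all arrays). C8b, with m4PTB values of 5.48, 5.44 and 5.48 against vehicle values of 5.55, 5.50 and 6.12, was also at background.

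Regulators other than the 3 described above differed in both directions. Clu, clusterin, an inhibitor of the terminal complex and also a marker of tubular injury, had a signal of 10.55, 10.71 and 10.13 in vehicle and of 11.37, 10.77 and 11.00 in m4PTB kidneys. Every m4PTB sample was above every vehicle sample, and the difference was 0.59 with an interval of 0.15 to 1.02 (limma unadjusted p = 0.0143, adjusted p = 0.649), or 0.42 without vehicle replicate 3. Cd59a, the membrane inhibitor of the terminal complex, was at 9.13, 8.90 and 8.97 in vehicle and at 8.76, 8.80 and 8.66 in m4PTB kidneys, again without overlap. Its difference was -0.26 with an interval of -0.46 to -0.07 (unadjusted p = 0.0144, adjusted p = 0.649).

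The membrane regulators Cr1l and Cd46, which act on surface-bound C3b and C4b, differed by 0.03 and 0.07 at background. Within the m4PTB group, replicate 1 had the highest C3 and the lowest Serping1 signal, while replicate 2 had C3 at 11.08 with Serping1 at 9.38, near the vehicle values of that regulator.

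Of the receptors 8 of 10 were tested, 7 of them higher and 1 lower. With each array's median subtracted 4 were higher and 4 lower, and 6 of the 8 lay below the control percentile on every array. Cd93, a transmembrane protein once taken for a C1q receptor, averaged 8.61 ± 0.30 (SD, n = 3) in the vehicle group and 8.98 ± 0.18 (SD, n = 3) in the m4PTB group, a difference of 0.36 that was 0.19 without vehicle replicate 3. The anaphylatoxin receptor genes C3ar1 and C5ar1, for the small fragments of C3 and C5, differed by 0.30 and 0.03, both below the control percentile on every array. With 1 array left out, C3ar1 ranged from 0.14 without m4PTB replicate 1 to 0.54 without m4PTB replicate 2, and C5ar1 was -0.12 without m4PTB replicate 1. C3ar1 was at 7.82 and 7.66 in m4PTB replicates 1 and 3 and at 7.01 in m4PTB replicate 2, the lowest of all samples. Of 9 neutrophil markers 3 passed the filter on dim probe sets and 0 lay above the control percentile on any array, and the part of neutrophils in the receptor values was not tested.

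**Figure D4:**
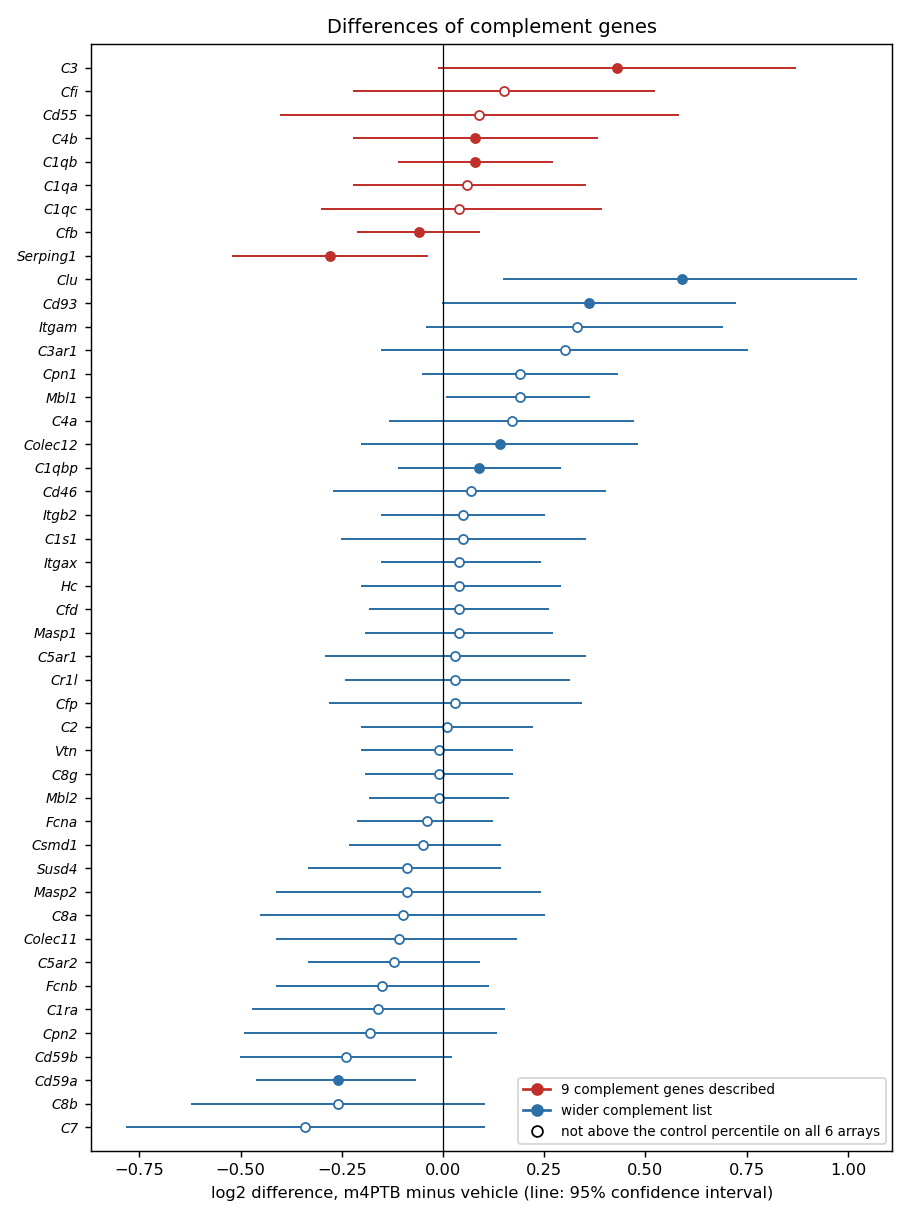
Log2 difference, m4PTB minus vehicle (x axis), with its 95% confidence interval for the 9 complement genes (red) and the tested genes of the wider list that are reported here (blue), where open circles mark genes not above the control percentile on all 6 arrays. Most differences lie close to 0, with C3, Clu and Cd93 on the higher side and Serping1 and Cd59a on the lower side among genes above background.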

How the data were processed

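Biotin-labelled RNA of whole kidneys (10 ug) was measured on MoGene arrays, as named per the file headers. The authors deposited log2 signal for each probe set, computed with RMA in Affymetrix Expression Console (version 1.1, from the submitters' processing notes). RMA removes background, forces arrays to a common distribution and summarises probes, so a shift shared by most genes would not be seen. The probe annotation names build NCBIM37. The 6 signal columns of a second table match no sample's labels and were not used, so the planned swap of tables was not run. That table gave symbols. For 22267 of 25004 probe sets with 1 symbol, the symbol was looked up in RefSeq by accession, which replaced 2268 of them. The 6559 control probe sets were left out.

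The filter required a log2 signal of 5 or more on 3 or more arrays, and 1 probe set per gene (highest mean) was used. The groups were compared with limma 3.58.1 (lmFit, eBayes, no covariate) in R 4.3.3, adjusted by Benjamini-Hochberg over 18238 genes and called under 0.05. Single genes were also compared by exact two-sided permutation in scipy 1.17.1. The labels number the replicates without saying that they are separate animals, so p-values measure only how these samples spread, part of which may be technical, and 3 arrays per group limit the precision. The 9 genes, the wider list and the marker lists were chosen with earlier results of these data known. Named were all 9, genes of the wider list without overlap or with an unadjusted p under 0.05 and a fixed set of 10 more, up to 2 genes of smallest p per marker list, and the 3 genes most like C1qa, C3, C4b and Cd55. Some genes that the rule names are not reported here. Alternatives changed the scaling, weights, variances, filter, probe set summary, replicate block and arrays used. Tested on data simulated for m4PTB against vehicle with 18238 genes, the fit found 71.5% of genes given a log2 shift of 0.5 and 99.5% of those given a shift of 1. The simulated noise was independent and normal, no array stood apart, and 200 genes were shifted at once. Its variances were those limma had already drawn toward a common value, so they differed less between genes than the observed ones. These shares may therefore not hold for the real arrays or for a gene as variable as C3.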

Additional observations from a re-analysis of the deposited data

How the results depend on the processing

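In all alternatives tried, 0 genes had an adjusted p under 0.05. C1qb, C3, Cfb and Serping1 kept their sign in all 14 alternatives. With array weights, which gave vehicle replicate 3 a weight of 0.24, the difference of C1qc was -0.07, of C4b -0.09, of Cfi -0.01 and of Cd55 -0.09, and with each array's median subtracted that of C1qc was -0.01. Leaving out 1 array, C1qa ranged from -0.05 to 0.19, C1qc from -0.11 to 0.21, C4b from -0.01 to 0.19, Cfi from -0.02 to 0.26 and Cd55 from -0.15 to 0.28. Values of -0.05 (C1qa), -0.11 (C1qc) and -0.15 (Cd55) came without vehicle replicate 3, -0.01 (C4b) and -0.03 (Cd55) without m4PTB replicate 3, and -0.02 (Cfi) without m4PTB replicate 1. The cause was not tested.

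At an unadjusted p under 0.05, 1 of the 9 genes was higher, C3, with array weights, beside 1076 of 18238 genes. The same held with trended and robust variances, beside 1007, and with the replicate block, beside 716. With only genes above the controls' 90th percentile (5 of the 9 tested), C3 was again the 1 higher, beside 552 of 8083 genes. With an array left out 0 to 1 of the 9 were higher, beside 478 to 1109 of all genes. The count of lower genes was 0 with array weights and with the replicate block, and 0 to 1 with an array left out. Over all genes, 220 to 1064 were lower in the alternatives. Higher genes without overlap numbered 0 to 1 with an array left out. In the wider list the count at an unadjusted p under 0.05 was 1 higher and 3 lower with array medians subtracted, and lower genes numbered 3 with cyclic loess, 2 with trended variances, 2 without the filter and 2 with the replicate block. With an array left out 1 to 4 were higher and 0 to 4 lower. Without overlap, 1 was higher with medians subtracted, 1 was lower with cyclic loess, and 1 was higher and 1 lower with the filter at the controls' percentile. With an array left out 2 to 5 were higher and 2 to 6 lower. Over all genes, the alternatives gave 773 to 3209 higher and 392 to 2203 lower without overlap.

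Over all genes, medians subtracted gave 441 higher and 1064 lower at an unadjusted p under 0.05 and 773 higher and 2203 lower without overlap, against 852, 466, 1710 and 951. The filter at the controls' percentile, with 8083 genes tested, gave 552, 220, 992 and 392. With an array left out these ran from 478 to 1109, 303 to 698, 2546 to 3209 and 1562 to 2046, fewer samples making non-overlap more frequent. Same-numbered samples did not deviate together over all genes (correlations of -0.13, -0.05 and -0.08). With 3 samples per group and 1 array that stood apart, this cannot settle whether the numbers pair the samples. Under the replicate block the unadjusted p was 0.0130 for C3 and 0.0512 for Serping1, and 0 genes passed after adjustment. Signal near background limits C1qa, C1qc, Cfi, Cd55 and most of the wider list, and also C4b, which was only narrowly above it on some arrays.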
